A study of Sus scrofa with 6 samples.

Results

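The acute phase proteins described here are the products of 10 genes, chosen by name with earlier results of these data known. The genes are CRP, PTX3, HP, HPX, ORM1, ITIH3, ITIH4, LRG1, LBP and SAA4. Of these, 8 were matched to a transcript cluster of the array, the probe group that reads out a gene or part of one, out of 25385 clusters tested. LRG1 stands under a provisional symbol in the annotation and was found by its description, leucine-rich alpha-2-glycoprotein. LBP, the lipopolysaccharide-binding protein, and SAA4, a serum amyloid A that is made constitutively in human liver, were matched to no cluster and could lie among clusters that carry no symbol or several. The 8 measured genes had 1 cluster each, built from 20 to 31 probes.

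The acute phase response is the change in plasma proteins that the liver makes within hours of injury, infection or surgery. Interleukin 6 is its main inducer in hepatocytes and acts through STAT3, while interleukin 1 and tumor necrosis factor act with it through NF-kB and C/EBP factors. The induced proteins opsonize microbes, bind free haemoglobin and haem, inhibit proteases and stabilize matrix, and in the pig haptoglobin, CRP, serum amyloid A and ITIH4, known there as pig major acute phase protein, are the usual plasma readouts.

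The arrays compare livers of adult male German landrace pigs after extended partial hepatectomy, in which a large part of the liver is removed. Controls were given Ringer solution as vehicle, and the MSC group received porcine mesenchymal stromal cells from bone marrow, differentiated towards hepatocytes in culture, through a central vein. Each group has 3 arrays, named here control 1 to 3 and MSC 1 to 3, which by the methods came from different animals, observed for about a day after surgery, while the labels name no animals. No liver of a sham-operated pig was analysed here, so the values show how 2 resected groups differ and not how far surgery itself moved these genes.

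Values are RMA signals on the log2 scale, in which a step of 1 is a doubling of signal. Signals of different clusters depend on their probes, so no gene is ranked against another by level. A gene is said to have risen or fallen where its unadjusted limma p was under 0.05 and its absolute log2 difference at least 0.5, the threshold of the study. By this rule 692 of 25385 clusters (2.73%) differed, 314 higher in MSC (1.24%) and 378 lower (1.49%), a balance that was 384 higher and 305 lower with each array centred on its median. After Benjamini-Hochberg adjustment over all clusters limma called 0, while 1662 had an unadjusted p under 0.05 and the lowest adjusted p was 0.176, so each call below is unadjusted. The background level, a log2 signal of 8.18, is the 95th percentile of 23 antigenomic probe sets, which match no pig sequence, and 5627 clusters (22.2%) had a mean above it. The median of these probe sets was 3.95, and the medians of the 6 arrays over the tested clusters lay between 6.51 and 6.59. A mean below the background level thus does not show that a gene was not expressed. Without control 1 the 692 became 2215 clusters (8.73%), and without control 2 they became 445.

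Of the 8 measured acute phase genes, 1 rose and 1 fell in MSC. LRG1 was 2.04-fold higher, PTX3 was 1.67-fold lower, and the other 6 had differences between 0.04 and 0.41 on the log2 scale that did not pass the threshold. The 2 called genes are 25% of the 8 measured, beside 2.73% of all clusters. Because the genes were chosen with earlier results of these data known, this share is not an independent excess. Adjusted p-values over all clusters ran from 0.736 to 0.963 for the 8. The difference was positive in 7 of 8 genes and its median was 0.18, beside a median of -0.01 over all clusters, of which 46.7% were positive, and a median of 0.07 over the 5627 clusters above the background level. The median of the 8 was 0.44 without control 1 and 0.07 without control 3. Both group means of 7 genes lay above the background level, and those of PTX3 lay below it. Tissue was measured in bulk, so fewer cells of a type and less RNA per cell cannot be told apart.

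**Figure D1:**
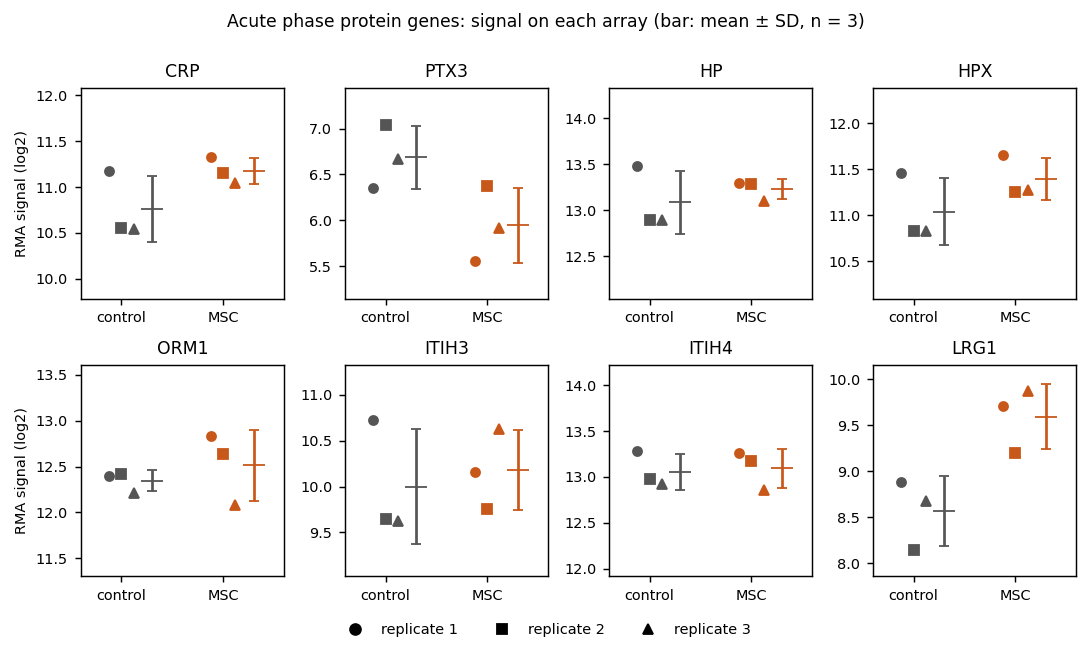
RMA signal (log2, vertical axis, with its own range in each panel) of the 8 measured acute phase genes on the 3 control and 3 MSC arrays, with symbols for the replicate and bars for the mean ± SD of n = 3 arrays. LRG1 values of MSC lie above those of control without overlap, and control 1 lies above the other controls in 6 of 8 panels.

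LRG1, on chromosome 2, encodes a secreted leucine-rich glycoprotein made by hepatocytes and by neutrophil precursors, which binds endoglin and alters TGF-beta signalling in endothelial cells of the mouse. Controls 1, 2 and 3 read 8.88, 8.14 and 8.68 (log2 signal), and MSC 1, 2 and 3 read 9.71, 9.20 and 9.87. Each MSC value lay above each control value, and control 2 and MSC 2 were the lowest of their groups. Such a full separation upwards was seen in 5.64% of all clusters. The mean rose from 8.57 ± 0.38 to 9.60 ± 0.35 (mean ± SD, n = 3), and the log2 difference was 1.03 with a 95% interval from 0.47 to 1.58. The limma p was 0.00278 and the adjusted p 0.736. The difference stayed between 0.81 and 1.23 with any single array left out, and LRG1 passed the threshold in each of these 6 fits. It was also past the threshold in each of the 7 other limma fits that were run, with differing normalization, weights, variance prior, block or cluster set.

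The genes whose profile over the 6 arrays was most like that of LRG1 were SPRY3, URAD and C2H5orf63. Likeness was the root mean square difference between profiles centred on their own means, over 10243 other genes. A gene chosen in this way has a group difference near that of LRG1 by construction. SPRY3, a Sprouty family gene, differed from LRG1 by 0.12 and rose by 1.07 on the log2 scale, from 6.70 ± 0.41 to 7.77 ± 0.33. URAD, which encodes a decarboxylase of urate breakdown, differed from it by 0.13 and rose by 0.89. C2H5orf63 differed by 0.14 and rose by 0.86. The means of SPRY3 and C2H5orf63 lay below the background level in both groups, and that of URAD did so in control.

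PTX3, on chromosome 13, encodes the long pentraxin, which myeloid cells, endothelial cells and fibroblasts release at sites of inflammation and which binds C1q and the hyaluronan-binding protein TNFAIP6. The log2 signals of controls 1, 2 and 3 were 6.35, 7.04 and 6.67, and those of MSC 1, 2 and 3 were 5.55, 6.37 and 5.92. The groups touched, since MSC 2 lay just above control 1. The mean fell from 6.69 ± 0.34 to 5.95 ± 0.41 (n = 3 each), and the log2 difference was -0.74 with a 95% interval from -1.31 to -0.17. The limma p was 0.0169 and the adjusted p 0.736. PTX3 did not pass when control 2 (-0.56, adjusted p = 0.999) or MSC 1 (-0.54, adjusted p = 0.994) was left out, since its unadjusted limma p was then above 0.05. PTX3 was the single gene of the 8 with a negative difference. With both means under the background level, the size of the difference is uncertain.

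MIR574, HTR2A and BDKRB1 had the profiles most like that of PTX3, so that their fall follows from the choice. MIR574, a microRNA gene, differed from it by 0.07 and fell from 9.52 ± 0.28 to 8.89 ± 0.43 on the log2 scale. HTR2A, a serotonin receptor gene, differed by 0.13 and fell from 5.37 ± 0.27 to 4.46 ± 0.29. BDKRB1, the inducible bradykinin receptor gene, also differed by 0.13 and fell from 7.03 ± 0.32 to 6.33 ± 0.26. Of these 3 genes MIR574 alone had means above the background level.

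CRP, on chromosome 4, encodes the short pentraxin made by hepatocytes, which binds phosphocholine on damaged membranes and starts the classical complement pathway through C1q. On the log2 scale the control arrays 1 to 3 gave 11.17, 10.56 and 10.55, while the MSC arrays 1 to 3 gave 11.32, 11.16 and 11.04. Control 1 stood among the MSC values, while the other controls lay below all of them, so that MSC was above control in 7 of 9 pairs of arrays. The means were 10.76 ± 0.36 and 11.17 ± 0.14 (n = 3 each), and the log2 difference was 0.41 with a 95% interval from -0.03 to 0.86, or 1.33-fold, which did not pass the threshold (adjusted p = 0.757). Without control 1 the difference was 0.62 and passed (adjusted p = 0.123), beside 8.73% of all clusters in that fit, and it passed with array weights (0.52). With any other array left out it lay between 0.31 and 0.48.

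HP, on chromosome 6, encodes haptoglobin, which binds free haemoglobin for uptake by macrophages. Controls 1, 2 and 3 read 13.48, 12.89 and 12.89 (log2 signal), and MSC 1, 2 and 3 read 13.30, 13.29 and 13.10. Control 1 was the highest of the 6 arrays and the other controls were the lowest. The means were 13.09 ± 0.34 and 13.23 ± 0.11 (n = 3 each), and the log2 difference was 0.14 with a 95% interval from -0.28 to 0.56 (adjusted p = 0.866). Leaving out single arrays gave 0.04 without control 3 and 0.34 without control 1, and none of the 6 fits passed the threshold.

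HPX, on chromosome 9, encodes hemopexin, which binds free haem and carries it to the liver. The log2 signals of controls 1, 2 and 3 were 11.46, 10.83 and 10.83, and those of MSC 1, 2 and 3 were 11.65, 11.26 and 11.27. As for CRP, control 1 lay among the MSC values and the other controls below all of them. The means were 11.04 ± 0.37 and 11.39 ± 0.23 (n = 3 each), and the log2 difference was 0.35 with a 95% interval from -0.12 to 0.83, or 1.28-fold (adjusted p = 0.767). It was 0.56 without control 1, where it passed (adjusted p = 0.169), and 0.22 without MSC 1. Beside these scavenger genes the haemoglobin gene HBB had a log2 signal of 9.71 ± 0.84 in control and 8.66 ± 0.81 in MSC (adjusted p = 0.760), a difference that did not pass.

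ORM1, on chromosome 1, encodes alpha-1-acid glycoprotein, a carrier of basic drugs and a modulator of leukocytes. On the log2 scale the control arrays 1 to 3 gave 12.40, 12.42 and 12.22, while the MSC arrays 1 to 3 gave 12.83, 12.64 and 12.08. The MSC arrays held both the highest values and the lowest one, and their range of 0.75 was wider than the 0.21 of the controls. The means were 12.35 ± 0.11 and 12.52 ± 0.39 (n = 3 each), and the log2 difference was 0.17 with a 95% interval from -0.29 to 0.63 (adjusted p = 0.850). It was 0.01 without MSC 1 and 0.39 without MSC 3, and none of the 6 fits passed.

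ITIH3 and ITIH4, both on chromosome 13, belong to the family of inter-alpha-trypsin inhibitor heavy chains. ITIH3 encodes a heavy chain that is transferred to hyaluronan and stabilizes the matrix. Controls 1, 2 and 3 read 10.72, 9.65 and 9.63 (log2 signal), and MSC 1, 2 and 3 read 10.16, 9.76 and 10.63. Control 1 and MSC 3 stood well above the other arrays, and the range of the controls, 1.09, was the widest of the 8 genes within a group. The means were 9.997 ± 0.63 and 10.18 ± 0.44 (n = 3 each), and the log2 difference was 0.19 with a 95% interval from -0.59 to 0.96 (adjusted p = 0.901). The difference was 0.55 without control 1 and -0.04 without MSC 3.

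ITIH4, the pig major acute phase protein, lacks the site through which the other heavy chains are joined to bikunin. The log2 signals of controls 1, 2 and 3 were 13.28, 12.97 and 12.92, and those of MSC 1, 2 and 3 were 13.26, 13.17 and 12.85. Control 1 was the highest array and MSC 3 the lowest, and the groups overlapped over most of their range. The means were 13.06 ± 0.20 and 13.09 ± 0.21 (n = 3 each), and the log2 difference was 0.04 with a 95% interval from -0.33 to 0.40 (adjusted p = 0.963). Its sign turned in 4 of the 6 fits with an array left out, which lay between -0.05 and 0.16.

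**Figure D2:**
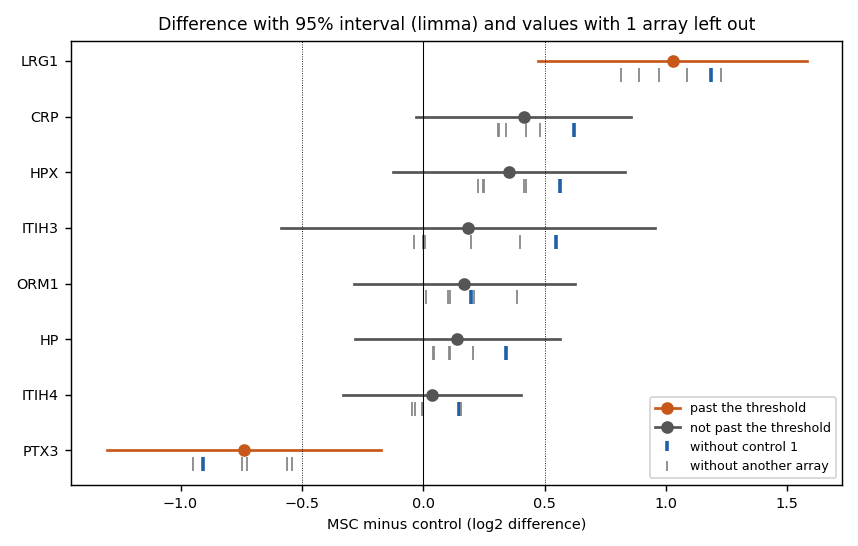
Log2 difference MSC minus control (horizontal axis) of the 8 measured genes with the 95% interval from limma (points and lines), with ticks below each for the value with 1 array left out, the one without control 1 in blue; dotted lines mark 0.5 in either direction. LRG1 at 1.03 and PTX3 at -0.74 passed the threshold, and leaving out control 1 gave the largest value of 4 genes, CRP, HPX, ITIH3 and HP.

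Across the genes other than PTX3 the arrays took similar places. MSC 1 was among the highest 3 arrays in 7 of these 7 genes, control 1 and MSC 2 in 5 each, and MSC 3 in 3. Control 3 was among the lowest 2 arrays in all 7 and control 2 in 5. Control 1 was the highest control in 6 of the 8 genes and lay above all MSC values in 3 of them, HP, ITIH3 and ITIH4. Over all 8 genes the median deviation from the control mean was 0.36, -0.20 and -0.17 on controls 1 to 3, against 0.34, 0.21 and 0.12 on MSC 1 to 3. The MSC values spanned a narrower range than the control values in 5 of 8 genes.

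**Figure D3:**
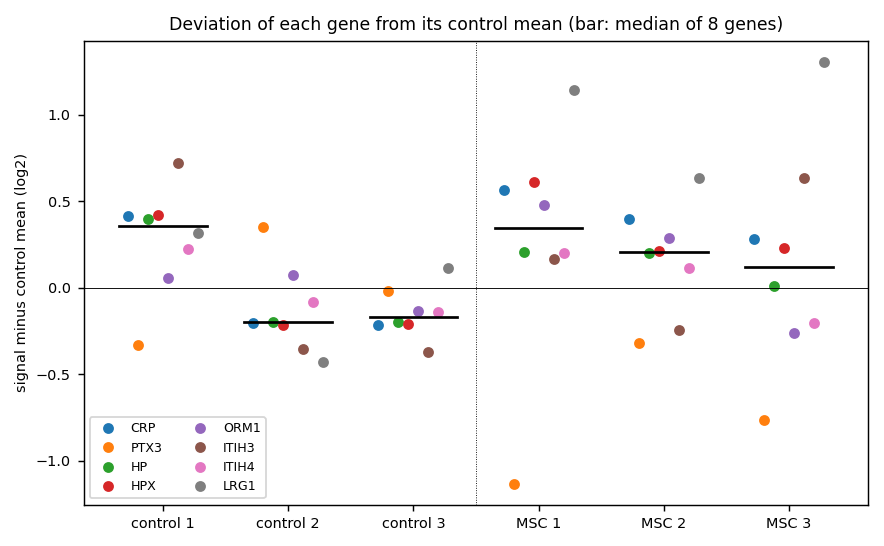
Deviation of each of the 8 genes from its own control mean (log2, vertical axis) on each of the 6 arrays, with a bar at the median of the 8. The bar of control 1 (0.36) lies at the height of that of MSC 1 (0.34) and above those of control 2 (-0.20) and control 3 (-0.17).

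Hepatocyte markers were present, and all 13 of 18 listed that were matched had means above the background level. The mean of the hepatocyte list was 11.94, 11.19 and 11.11 on controls 1 to 3, against 11.64, 11.62 and 11.32 on MSC 1 to 3. Control 1 was thus the highest and the other controls the lowest in this list too, and its part in the values of the acute phase genes was not tested. Of the 13 markers 9 had a positive difference and 4 a negative one, beside 46.7% positive over all clusters. Their defining gene ALB, for albumin, had 13.50 ± 0.04 in control and 13.57 ± 0.06 in MSC (n = 3 each, adjusted p = 0.896). The list is not separate from those below, since SERPINA1 and FGB are also among the positive and ALB, APOA1 and TF among the negative acute phase genes, APOA1 is among the partners and HNF4A among the inducers.

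The endothelial, bile duct and stellate cell lists were lowest among the controls on control 1. So were the macrophage, lymphocyte, and neutrophil and monocyte lists of the next paragraph, and PTPRC, while the erythroid list was lowest on control 3. The endothelial list had means of 8.35, 9.17 and 8.98 on controls 1 to 3, against 8.53, 8.70 and 8.37 on MSC 1 to 3, with all 9 matched markers negative and 2 lower past the threshold. Bile duct markers had 8.44, 9.36 and 9.25 on the controls and 8.50, 8.66 and 8.22 on the MSC arrays, with 7 of 7 negative and 2 lower. Stellate cell and fibroblast markers had 8.97, 9.66 and 9.51 on the controls and 8.998, 9.22 and 8.95 on the MSC arrays, with 11 of 13 negative and 1 lower. The endothelial, bile duct and stellate cell lists had means on control 1 near those of the MSC arrays, and higher means on control 2 and control 3. Over all clusters 1.49% were lower by the threshold and 46.7% had a positive difference.

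Over all clusters 1.24% were higher and 1.49% lower by the threshold, and 46.7% were positive. Macrophage markers had means between 8.59 and 9.07 on the controls and between 8.92 and 9.06 on the MSC arrays. Of these 12 of 15 were matched, with 8 positive, 1 higher and 1 lower. Their defining gene CD163, the receptor for haptoglobin bound to haemoglobin, was matched to no cluster. Of the neutrophil and monocyte list 10 of 16 were matched, none with a mean above the background level, and the list means lay between 6.15 and 6.42 on the controls and between 5.79 and 6.30 on the MSC arrays. In that list VNN2 rose by 0.60 and S100A8, a calcium-binding protein of neutrophils and monocytes, fell from 6.67 ± 0.31 to 5.87 ± 0.66 (adjusted p = 0.736 and 0.739). VNN2 lost its call when control 2 or MSC 1 was left out. With single arrays left out S100A8 passed only without control 3 or MSC 2. PTPRC, the common leukocyte antigen, had 9.34 ± 0.65 in control and 9.14 ± 0.12 in MSC (n = 3 each, adjusted p = 0.883). Of the lymphocyte list 14 of 15 were matched, with means between 6.05 and 6.79 on the controls and between 6.33 and 6.38 on the MSC arrays, and of the erythroid list 6 of 9, with means between 5.46 and 6.28 and between 5.36 and 5.70. No lymphocyte marker passed the threshold, and of the erythroid markers 5 of 6 were negative and EPB42, for a protein of the red cell membrane, was lower by the threshold (-0.52). With single arrays left out EPB42 passed only without control 3. Its call was also lost with the replicate block, median centring, repeated quantile normalization or array weights, and both its means lay below the background level. The part of these lists in the values of LRG1 and PTX3 was not tested.

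**Figure D4:**
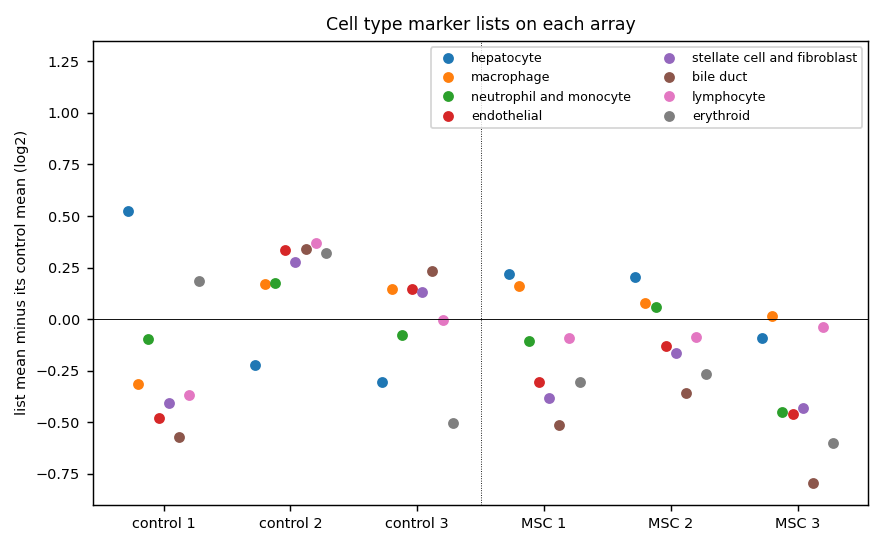
Mean log2 signal of 8 cell type marker lists on each of the 6 arrays, as the difference from the list's own control mean (vertical axis). The hepatocyte list is highest on control 1 (mean signal 11.94) and the bile duct list is lowest on MSC 3 (8.22).

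Positive acute phase genes are those whose products rise in plasma in an acute phase response. The list of others was drawn up by role, and not each gene on it meets this strictly. Of 30 listed genes 21 were matched. Of these 1 rose and none fell, beside 1.24% and 1.49% of all clusters. The difference was positive in 17 and negative in 4, beside 46.7% positive over all clusters, and its median was 0.22. The gene that rose was C4BPA, for the alpha chain of the complement regulator C4b-binding protein, from 8.38 ± 0.27 to 9.19 ± 0.52 (n = 3 each, log2 difference 0.81, adjusted p = 0.736). Its values overlapped, and the call was lost when control 2, MSC 1 or MSC 3 was left out. CD14, the co-receptor for lipopolysaccharide, was 8.89, 8.59 and 8.86 on the controls and 9.32, 9.20 and 9.28 on the MSC arrays. Those groups did not overlap, as in 5.64% of all clusters with MSC above, but its log2 difference of 0.48 was under 0.5 (adjusted p = 0.736). PLG, for plasminogen, differed by 0.49 and LCN2, for the siderophore-binding lipocalin 2, by 0.51, with adjusted p-values of 0.762 and 0.763, and both means of LCN2 lay below the background level.

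The fibrinogen genes, C3, SERPINA1 and SAA3 of that list did not pass the threshold. FGA, FGB and FGG, for the chains of fibrinogen, differed by 0.02, -0.04 and -0.07 on the log2 scale, with 95% intervals that all lay within -0.36 and 0.32. C3, the central complement component, differed by 0.14 and SERPINA1, the main inhibitor of neutrophil elastase, by 0.26. SAA3, serum amyloid A, had 2 clusters, with log2 differences of -0.24 (10.41 ± 0.60 to 10.17 ± 0.46) and -0.18 (8.21 ± 0.52 to 8.03 ± 1.09), and neither passed. The difference of the former was 0.10 without control 1 and -0.47 without control 3. Serum amyloid A genes are close copies of each other, so signal of SAA3 may include that of its relatives. Leaving out single arrays moved the count of called genes in this list between 0 and 6. The 6 were without control 1, a fit that called 8.73% of all clusters.

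Negative acute phase genes, whose products fall in plasma in an acute phase response, were matched for 10 of 15 listed. Of these 2 rose and none fell, beside 1.24% and 1.49% of all clusters. The difference was positive in 9, beside 46.7% over all clusters, and the median was 0.27. SERPINA7, for thyroxine-binding globulin, rose from 7.98 ± 0.64 to 8.96 ± 0.55, and HRG, for histidine-rich glycoprotein, from 10.79 ± 0.44 to 11.57 ± 0.50 (n = 3 each, adjusted p = 0.736 and 0.737). SERPINA7 lost its call when control 2, MSC 1 or MSC 3 was left out. Among the fits with a single array left out, HRG kept its call only without control 1 or MSC 3. SERPINA6, for the cortisol-binding globulin, differed by 0.67 and IGF1, the growth factor of the liver, by -0.50, and neither passed. The control mean of SERPINA7, the MSC mean of IGF1 and both means of SERPINA6 lay below the background level. The count of called genes lay between 0, without control 2, and 5, without control 1. Those 2 fits called 1.75% and 8.73% of all clusters.

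The lists of positive and negative acute phase genes thus had positive medians of 0.22 and 0.27, beside the 0.18 of the 8 genes and the -0.01 of all clusters. Over the 5627 clusters above the background level, where most genes of these lists lay, the median was 0.07. The hepatocyte markers had a median of 0.08.

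**Figure D5:**
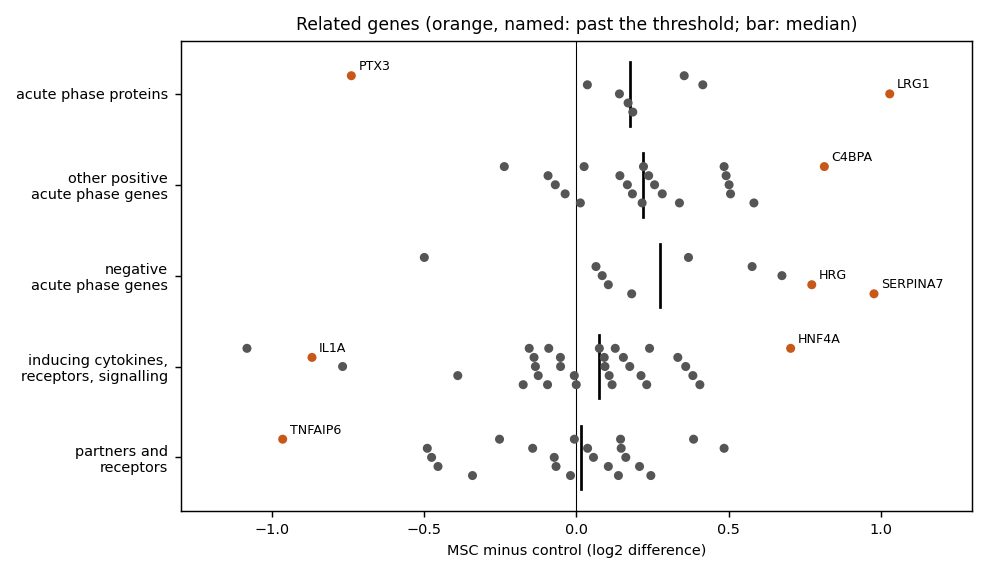
Log2 difference MSC minus control (horizontal axis) of each matched gene in the 8 acute phase genes and 4 related lists, with a bar at the list's median and genes past the threshold in orange with their names. The medians are 0.18, 0.22, 0.27, 0.08 and 0.01 from top to bottom.

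Of the inducing cytokines, receptors and signalling genes 31 of 40 were matched, 16 with a positive and 15 with a negative difference and a median of 0.08. In this list 1 rose and 1 fell, beside 1.24% and 1.49% of all clusters, of which 46.7% were positive. Of the cytokines described here IL6, IL1A, IL1B and OSM had negative differences and TNF a positive one, all with group means below the background level. IL6 had log2 signals of 5.44, 7.32 and 7.16 on controls 1 to 3, against 5.18, 5.97 and 5.53 on MSC 1 to 3. Control 1 lay among the MSC values and the other controls above all of them, and the log2 difference of -1.08 did not pass (adjusted p = 0.757), while it was -1.68 and passed without control 1. IL1A, for interleukin 1 alpha, fell from 6.31 ± 0.78 to 5.44 ± 0.32 (n = 3 each, log2 difference -0.87, adjusted p = 0.752), and with single arrays left out it passed only without control 1. IL1B differed by -0.77 and OSM, for oncostatin M, by -0.39, and TNF, for tumor necrosis factor, by 0.11, and none of these passed.

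Among the receptors and transcription factors of that list HNF4A rose and no gene fell. HNF4A, a transcription factor of the hepatocyte, rose from 9.24 ± 0.48 to 9.94 ± 0.18 (n = 3 each, log2 difference 0.70, adjusted p = 0.736), with no overlap between groups, and did not pass without control 2 or MSC 3. IL6R, for the receptor chain that binds interleukin 6, was 7.96, 8.05 and 8.12 on the controls and 8.58, 8.54 and 8.23 on the MSC arrays, a difference of 0.41 without overlap that was under 0.5. FOXA2, a liver transcription factor, differed by 0.38, also without overlap. Such a full separation upwards was seen in 5.64% of all clusters. Both means of FOXA2 and the control mean of IL6R lay below the background level. IL6ST, the signalling chain shared by receptors of this family, differed by -0.05, STAT3 by 0.09, CEBPB by 0.09 and CEBPD by 0.13. The count of called genes lay between 0, without control 2, and 5, without control 1, beside 1.75% and 8.73% of all clusters.

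Partners and receptors of the 10 genes were matched for 22 of 32, 11 positive and 11 negative with a median of 0.01. In this list 1 fell, beside 1.49% of all clusters, of which 46.7% were positive. TNFAIP6, which moves heavy chains such as ITIH3 onto hyaluronan and binds PTX3, fell from 6.78 ± 0.81 to 5.82 ± 0.18 (n = 3 each, log2 difference -0.96, adjusted p = 0.736), with both means below the background level. All its MSC values lay below the control values, as in 5.96% of all clusters, and its call was lost when control 3, MSC 1 or MSC 2 was left out. CD44, the hyaluronan receptor, was 9.21, 9.42 and 9.41 on the controls and 8.85, 9.19 and 8.63 on the MSC arrays, a difference of -0.45 without overlap that was under the threshold. AMBP, which encodes bikunin, the light chain of inter-alpha-inhibitor, differed by 0.38, and the heavy chains ITIH1 and ITIH2 by 0.16 and 0.04. ENG, for endoglin, the receptor bound by the LRG1 protein, differed by -0.34, and C1QA, a chain of the complement protein bound by both pentraxins, by 0.21. CD14, given above, is in this list too. The count of called genes lay between 0, without MSC 1, and 7, without control 1, beside 2.25% and 8.73% of all clusters.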

How the data were processed

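Total RNA of 6 pig liver samples was measured on 6 Porcine Gene ST arrays of Affymetrix. The deposited log2 values were made by the authors with RMA (background correction, quantile normalization, median polish) in Affymetrix Expression Console 1.4 and were used as given. It was not given in the sources used here whether this RMA ran on these 6 arrays alone. The methods describe RMA per organ for another run, made in R. The deposited workbook gave the annotation, including the number of probes per cluster. Its 6 signal columns, with names that match no sample label, and the authors' fold changes and p-values in it were not used. Of 27558 probe sets 25385 clusters of category main or rescue were tested, and 2173 control probe sets were left out. Symbols came from the annotation, synonyms, gene IDs, RefSeq transcripts and Ensembl genes, and 10244 genes were named. Where a gene had several clusters, the brightest on average represented it. Only chromosomes are printed, because no source states which genome build the positions follow.

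MSC was compared with control in limma 3.58.1 under R 4.3.3 (lmFit and default eBayes, with 4 degrees of freedom from the residuals and 3.80 from the prior), tested on simulated data. Differences are MSC minus control, with 95% intervals from limma, and Benjamini-Hochberg adjustment covered all 25385 clusters. A gene passed at an unadjusted p under 0.05 and a difference of at least 0.5 in either direction. Alternatives left out each array, added the replicate number as a block, repeated the normalization in other ways, weighted arrays, changed the variance prior, dropped clusters below the background level, kept 1 cluster per gene, or used the methods' t-test. The spread behind each p-value is that between animals with 1 array each, and precision is limited by the number of arrays.

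The members and gene lists were chosen with earlier results of these data known. Named are all members, in each related list the genes past the threshold and, up to 4, those with the smallest p, the 3 genes most like each called member, and the defining markers ALB, CD163 and PTPRC. VNN2, S100A8 and EPB42 of the marker lists are named outside this rule, while other called markers are not named. CPB2 is named for its call with the replicate block. The fibrinogen, SAA3, C3, SERPINA1, IL6, IL1B, TNF, IL6ST, STAT3, CEBPB, CEBPD, ITIH1, ITIH2, ENG, C1QA and HBB values were added for their roles after the values were seen.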

Additional observations from a re-analysis of the deposited data

How the results depend on the processing

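LRG1 passed the threshold in every limma fit that was run. The count of called acute phase genes, 2, became 4 without control 1, where CRP and HPX passed as well and 8.73% of all clusters were called. It lay between 1 and 4 with single arrays left out. It was 1 with clusters above the background level only, where PTX3 was not tested, and 1 (LRG1) by the methods' t-test with more than 2-fold, which called 0 of the genes after adjustment over all clusters (lowest adjusted p = 0.829). The median difference lay between 0.07 and 0.44 with single arrays left out and between 0.17 and 0.35 under the other settings. The sign of ITIH4 turned without control 2 (-0.0066), control 3 (-0.033), MSC 1 (-0.046) and MSC 2 (-0.0023), within a range up to 0.16, and that of ITIH3 without control 3 (-0.00031) and MSC 3 (-0.039), within a range up to 0.55.

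The count of other positive genes, 1, lay between 0 and 6 with single arrays left out, and was 2 with median centring and 3 with array weights. That of negative genes, 2, lay between 0 and 5 and was 6 with array weights. That of inducing genes, 2, lay between 0 and 5, and was 1 with repeated quantile normalization, 4 with array weights and 1 above the background level. That of partners, 1, lay between 0 and 7, and was 2 with median centring, 2 with repeated quantile normalization, 6 with array weights and 0 above the background level. The cause was not tested. Over all clusters leaving out control 1 gave 2215 calls (8.73%) in place of 692 (2.73%), leaving out MSC 2 gave 1240 and leaving out control 2 gave 445. Array weights gave 739 higher and 826 lower (6.17% together), and median centring turned the balance to 384 higher and 305 lower. The counts of the lists are to be read beside these shares.

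Same-numbered control and MSC arrays deviated together with r = -0.02, 0.25 and -0.08 over all clusters. Arrays of different number had r between -0.18 and 0.20. Correlations from so few arrays cannot decide whether the numbers pair the samples. With the replicate number as a block 834 clusters were called, among them 2 acute phase genes, 2 other positive, 3 negative, 3 inducing genes and 1 partner. CPB2, SERPINA6 and IL6 passed in this fit and not in the one without the block. So did HBB and further genes of the marker lists. The mean over all clusters of a member gave no other value, since each had 1 cluster. Signals below the background level limit what can be said of PTX3, IL6, IL1A, IL1B, OSM, TNF, FOXA2, LCN2, SERPINA6 and TNFAIP6, and in 1 group of SERPINA7, IGF1 and IL6R.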
